A study of Mus musculus with 8 samples.

Results

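The genes described here encode intermediate filament proteins: desmin (*Des*), vimentin (*Vim*), nestin (*Nes*), synemin (*Synm*), glial fibrillary acidic protein (*Gfap*), lamins A/C (*Lmna*) and B1 (*Lmnb1*), and the simple-epithelial keratins 8, 18 and 19 (*Krt8*, *Krt18* and *Krt19*). The 10 genes were taken by name, and each matched 1 of the 54532 Ensembl identifiers in the count files. RNA was sequenced from 8 wild-type primary pericyte cultures from mouse brain, 4 given vehicle and 4 given TGF-β1 at 5 μg/mL, and all were sampled at 48 h. TGF-β1 is a secreted cytokine that acts through receptor kinases and SMAD transcription factors. The labels give no age, sex or strain for the animals. Cells were isolated with papain and passaged in endothelial and then pericyte growth medium, both with serum. The study's methods speak of 4 isolates given vehicle and TGF-β1, whereas its design text counts 8 cultures. The labels number the vehicle cultures 1 to 4 and the TGF-β1 cultures 5 to 8 and tie no pair together, so the groups were compared as unpaired, and p-values measure the spread between these cultures.

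Intermediate filaments are rope-like polymers of coiled-coil proteins that resist mechanical strain. Desmin and vimentin polymerize on their own in the cytoplasm of mesenchymal and muscle cells, nestin and synemin join them as long-tailed partners, keratins form obligate pairs of a type I and a type II chain in epithelia, and lamins form the meshwork under the inner nuclear membrane. Desmin is used as a marker of pericytes, and the study took it, with *Cspg4*, as an indicator of pericyte function. In pericytes given TGF-β for a shorter time, the study reported less *Des* RNA by quantitative PCR and less desmin protein. *Pdgfrb* and *Rgs5* were described there as roughly unaltered, and a SMAD3 inhibitor partly restored *Des*.

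Of the 10 genes, *Nes*, *Krt19*, *Lmna* and *Lmnb1* were higher in the TGF-β1 cultures, and *Vim* was slightly lower (edgeR quasi-likelihood test, Benjamini-Hochberg adjusted p under 0.05 over the 22544 genes tested). The changes were modest, from a 1.55-fold rise of *Nes* to a change of -5.39% in the mean of *Vim*. *Des*, *Synm* and *Gfap* were not called, and *Krt8* and *Krt18* had too few reads to be tested. These are 4 genes higher and 1 lower of the 8 tested, where 20.9% of all tested genes were higher and 20.3% were lower (41.3% in either direction). The median log2 fold change was 0.16 over the 8 genes and -0.01 over all genes tested. The groups did not overlap in the 4 genes that rose, where 37.9% of all tested genes had groups that did not overlap (19.1% with TGF-β1 higher). Since the RNA came from whole cultures, fewer cells with a transcript and less of it per cell cannot be told apart.

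**Figure D1:**
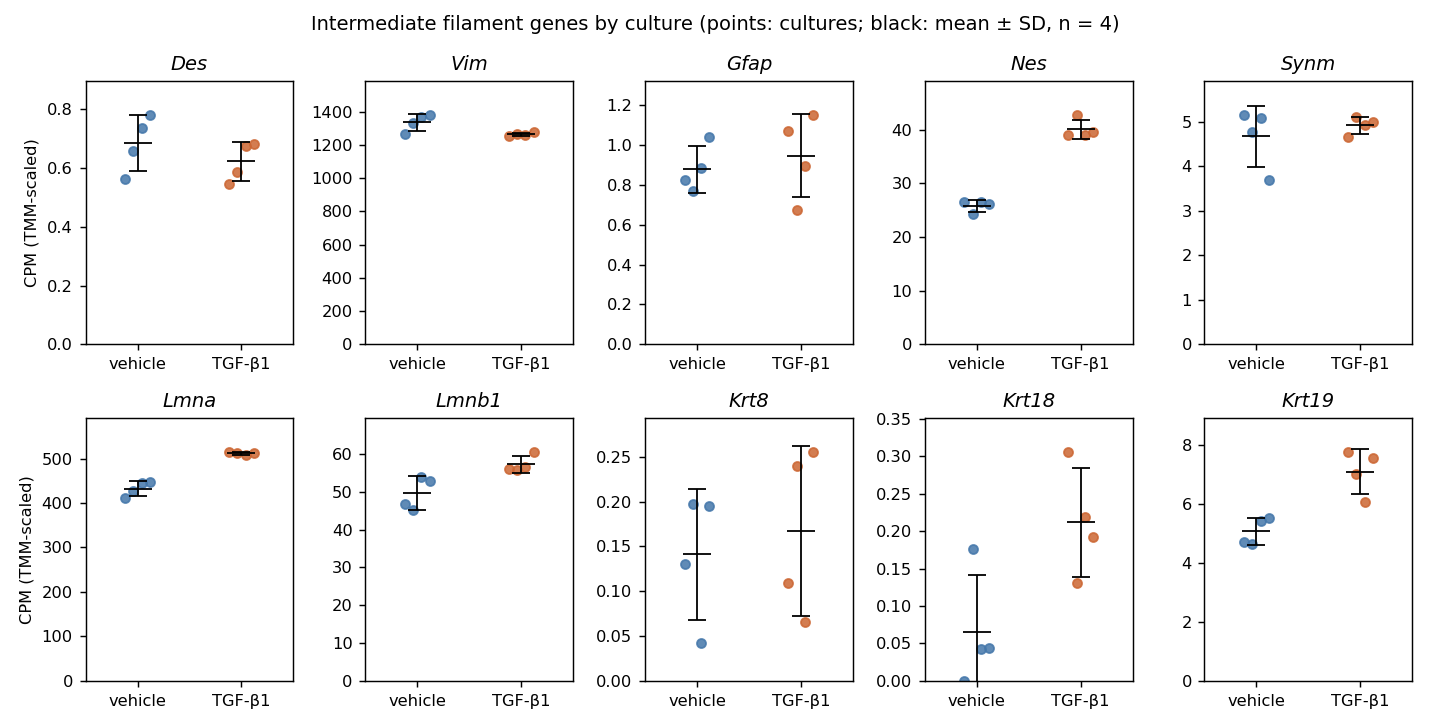
CPM (counts scaled to a common library size with TMM factors) of the 10 genes in each of the 4 vehicle (blue) and 4 TGF-β1 (orange) cultures, with the mean and SD in black and every axis from 0 (the lower SD bar of *Krt18* with vehicle is clipped there). *Nes*, *Lmna*, *Lmnb1* and *Krt19* separate the groups without overlap, whereas the points of *Des*, *Vim*, *Synm*, *Gfap*, *Krt8* and *Krt18* overlap.

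Each library held between 45255235 and 47651397 counts, so that 3 counts corresponded to 0.0631 to 0.0658 CPM. As a check of the treatment, 7 of 8 genes commonly regulated by TGF-β were higher and 1 was lower, with a median log2 fold change of 1.08. This is 100% called, where 41.3% of all tested genes were called and 20.9% were higher. The list, like the others, was chosen with earlier results of these data known. The lower gene, against the direction of the other 7, was *Tgfbi*. It went from 230 ± 4.78 to 81.2 ± 10.3 CPM without overlap (SD, n = 4 each; log2 fold change -1.50, adjusted p = 9.69e-06, edgeR). Among pericyte markers, *Pdgfrb*, *Notch3* and *Cspg4* were abundant (*Pdgfrb* at 202 ± 5.43 CPM with vehicle, SD, n = 4), whereas *Kcnj8* had 0 to 2 counts per culture, *Abcc9* 0 to 9 and *Vtn* 2 to 6, so these markers of brain pericytes in tissue were at or near 0. With TGF-β1, *Pdgfrb* was higher, at 291 ± 2.58 CPM without overlap (SD, n = 4; log2 fold change 0.53, adjusted p = 1.26e-22, edgeR). *Cspg4*, a proteoglycan that the study took with *Des* as an indicator of function, went from 82.9 ± 2.50 to 169 ± 5.62 CPM (SD, n = 4 each; log2 fold change 1.03, adjusted p = 2.02e-30, edgeR). Of 11 pericyte markers, 8 were tested, with 3 higher and 3 lower (75% called, where 41.3% of all tested genes were called). Of the 3 lower markers, *Atp13a5* had 30 to 38 reads with vehicle and 4 to 20 with TGF-β1. It passed the expression filter through the vehicle group, so its place in that count is not independent of the filter. The summed level of 7 endothelial markers was 390 to 405 CPM with vehicle and 376 to 402 CPM with TGF-β1, nearly all of it *Cdh5*, while *Cldn5* had 0 to 10 counts and *Tie1* 0 to 4. Of the endothelial markers, 1 was higher and 1 lower of 5 tested (40% called, near the 41.3% of all tested genes). Fibroblast markers (5 genes, 2 higher and 1 lower of 4 tested, 75% called, where 41.3% of all tested genes were called) summed to 3717 to 3877 CPM with vehicle and 5327 to 5569 CPM with TGF-β1. Nearly all of that sum was *Col1a1* and *Col1a2*, which were the higher ones, while *Dcn* was lower and *Pdgfra* was not called. Macrophage and microglia markers (7 genes, 1 higher of 5 tested, 20% called) summed to 2.92 to 3.84 and 4.26 to 5.08 CPM. The part of other cell types in the results below was not tested.

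Per length of exon, *Vim* was the most abundant of the 10 genes, at 282 ± 10.6 CPM per kb with vehicle and 267 ± 2.11 CPM per kb with TGF-β1 (SD, n = 4 each). *Lmna* followed at 74.0 ± 2.86 and 87.6 ± 0.459 CPM per kb, and *Lmnb1* at 16.8 ± 1.48 and 19.3 ± 0.741 CPM per kb. *Nes* and *Krt19* lay between 2.49 and 6.66 CPM per kb in every culture. *Synm* reached at most 0.648 CPM per kb, and *Gfap*, *Des*, *Krt8* and *Krt18* lay below the lowest value of *Synm* in every culture. With vehicle, each gene in this order lay above the range of the next, except *Gfap* and *Des*, and *Krt8* and *Krt18*, whose ranges overlapped. With TGF-β1 the first 8 genes kept that order, and the ranges of *Gfap*, *Des*, *Krt18* and *Krt8* overlapped from each to the next. *Vim* held 74.1% of the summed level of the 10 genes per kb with vehicle and 69.3% with TGF-β1, and *Lmna* held 19.4% and 22.8%. Levels per length depend on the length chosen: with the longest protein-coding transcript in place of all merged exons, *Vim* was at 610 and *Lmna* at 137 CPM per kb with vehicle, and the order of the genes was the same.

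**Figure D2:**
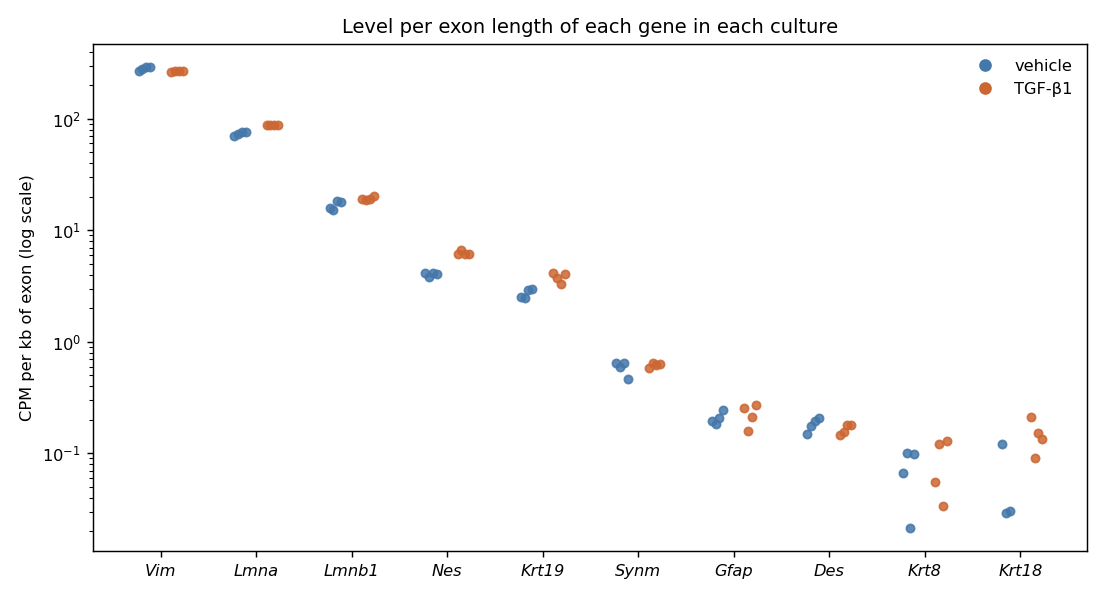
CPM per kb of merged exon on a log scale for each gene in each culture (blue, vehicle; orange, TGF-β1), ordered by the vehicle mean. The levels run from 282 CPM per kb for *Vim* with vehicle to at most 0.213 CPM per kb for *Krt18*; the vehicle culture with no *Krt18* read is not drawn.

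*Des* (ENSMUSG00000026208, chromosome 1, 75360329 to 75368579 of GRCm38, plus strand) encodes desmin, the filament of muscle and mural cells. It had 26, 30, 35 and 36 reads in vehicle cultures 1 to 4 and 25, 27, 31 and 32 in TGF-β1 cultures 5 to 8. These correspond to 0.564, 0.658, 0.737 and 0.780 CPM with vehicle and 0.546, 0.588, 0.677 and 0.681 CPM with TGF-β1, and the ranges overlapped for most of their width. The log2 fold change was -0.14 (95% interval -0.65 to 0.37, adjusted p = 0.715, edgeR quasi-likelihood test), so a level between 0.639 and 1.30 times that of vehicle was not excluded at this depth. An antisense transcript overlaps 5.86% of the exon length of *Des*, and the strand setting of the counting was not given. The genes whose profile over the 8 cultures was most like that of *Des*, by the root mean square difference of centred log2 CPM among 16488 genes, were *Acad12* (0.0761) and *Brd3os* (0.0779), and neither was called. The muscle list held 8 smooth and skeletal muscle genes, without *Acta2*, which the study plotted from these RNA data. Its sum was low as well, at 11.2 to 12.04 CPM with vehicle and 13.6 to 16.2 CPM with TGF-β1. Of these 8 genes, 4 were tested and 2 were higher (50% called, where 41.3% of all tested genes were called). *Actg2* went from 8.14 ± 0.272 to 11.2 ± 0.629 CPM without overlap (SD, n = 4 each; log2 fold change 0.46, adjusted p = 4.75e-07, edgeR). *Cnn1* rose by 0.36 on the log2 scale with overlapping groups (adjusted p = 0.0486, edgeR). *Myh11*, the smooth muscle myosin heavy chain, was at 1.10 ± 0.172 and 0.790 ± 0.110 CPM without overlap and was not called (log2 fold change -0.47, adjusted p = 0.0780, edgeR). The study described *Myh11* as downregulated in these RNA data. *Myocd* had 0 to 10 counts and *Myod1* 0 to 2.

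The study defined scores of mural cell function as the ratio of *DES* to *NOTCH3* or to *RGS5*, so both ratios were formed within each culture from mouse counts. For *Notch3*, a receptor of pericytes, the log2 ratio was -7.27, -7.08, -6.85 and -6.81 with vehicle and -7.35, -7.15, -6.99 and -6.87 with TGF-β1. The groups overlapped, with a difference of -0.09 (95% interval -0.46 to 0.28, exact permutation test, two-sided, p = 0.543, adjusted p = 0.6 over 7 ratios). With *Rgs5*, a regulator of G-protein signaling and pericyte marker, it was -3.98, -3.70, -3.42 and -3.46 with vehicle and -2.15, -1.86, -1.54 and -1.48 with TGF-β1. Every TGF-β1 culture was above every vehicle culture, by 1.89 on average (95% interval 1.39 to 2.38, exact permutation test, two-sided, p = 0.0286). This is the smallest p that 4 cultures against 4 allow, and adjusted over the 7 ratios it was 0.1, above the threshold. The higher ratio went with the denominator: *Rgs5* fell from 8.62 ± 0.466 to 2.13 ± 0.245 CPM (SD, n = 4 each; log2 fold change -2.02, adjusted p = 7.63e-21 in edgeR), whereas *Notch3* was at 88.5 ± 1.86 and 85.9 ± 4.20 CPM and was not called (adjusted p = 0.301). The ratio of *Des* to *Vim* overlapped between the groups (difference -0.05, 95% interval -0.31 to 0.20).

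**Figure D3:**
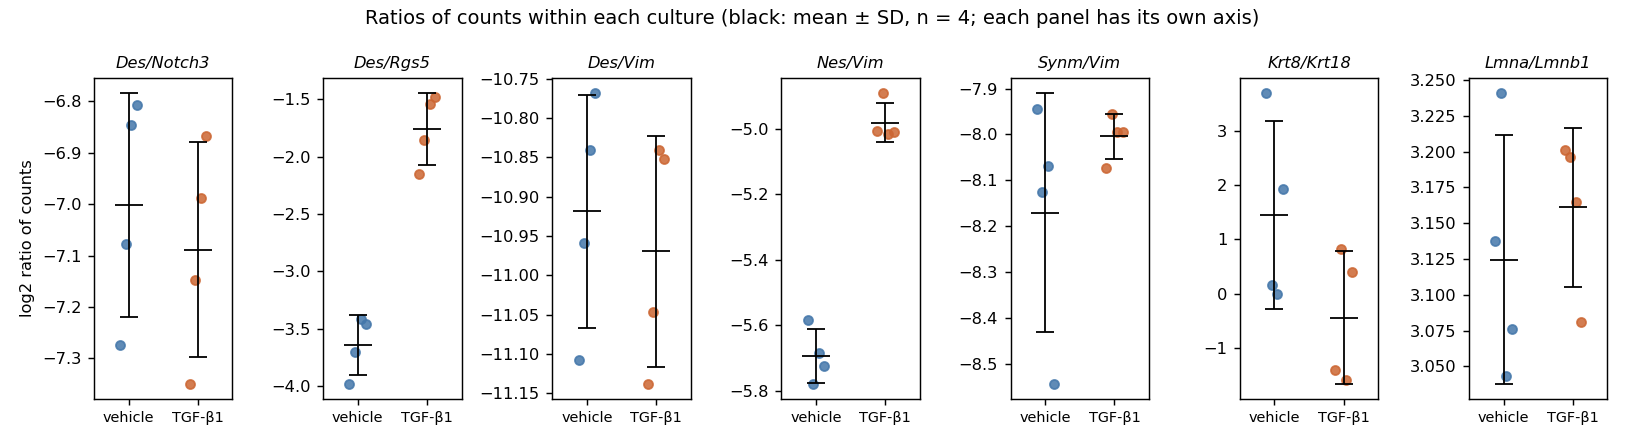
Log2 ratio of counts within each culture for the 7 pairs compared, vehicle in blue and TGF-β1 in orange, with mean and SD in black and a separate axis for each pair. The groups do not overlap for *Des* to *Rgs5* and *Nes* to *Vim*, and they overlap for the other 5 pairs.

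*Vim* (ENSMUSG00000026728, chromosome 2, 13573927 to 13582826, plus strand), the general filament of mesenchymal cells, was at 1269, 1332, 1370 and 1379 CPM with vehicle and 1255, 1267, 1261 and 1278 CPM with TGF-β1. The lowest vehicle culture lay within the range of the TGF-β1 cultures, and the other 3 lay above it. This gave a log2 fold change of -0.08 (95% interval -0.13 to -0.03, adjusted p = 0.00332, edgeR), and 25.3% of the tested genes had a smaller absolute change.

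*Gfap* (ENSMUSG00000020932, chromosome 11, 102887336 to 102900912, minus strand), the filament of astrocytes, had 35 to 48 reads per culture with vehicle and 31 to 54 with TGF-β1. It was at 0.879 ± 0.117 and 0.947 ± 0.210 CPM (SD, n = 4 each), and the TGF-β1 range spanned the whole vehicle range. Its log2 fold change was 0.11 (95% interval -0.34 to 0.55, adjusted p = 0.745, edgeR). Other astrocyte genes moved in both directions. Of 8 markers, 7 were tested, 2 were higher and 3 lower (71.4% called, where 41.3% of all tested genes were called). Of the 3 lower genes, *Gjb6* had 28 to 39 reads with vehicle and 0 to 4 with TGF-β1. It passed the expression filter through the vehicle group, so its place in that count is not independent of the filter. Their summed level was 251 to 263 CPM with vehicle and 226 to 238 CPM with TGF-β1. Most of that sum was *Gja1*, which was at 195 ± 5.73 and 190 ± 7.5 CPM and was not called. *Slc1a2*, 1 of the 3 lower genes, went from 38.5 ± 2.88 to 16.3 ± 0.996 CPM (SD, n = 4 each). *Aqp4*, the water channel of astrocyte end-feet, had 0 to 6 counts per culture.

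*Nes* (ENSMUSG00000004891, chromosome 3, 87971078 to 87980451, plus strand) encodes nestin, a filament protein of neural and vascular progenitors that needs a partner such as vimentin to assemble. It was at 26.4, 24.2, 26.6 and 26.1 CPM with vehicle and 39.0, 42.7, 39.0 and 39.7 CPM with TGF-β1. Every TGF-β1 culture was above every vehicle culture, and the gap between the groups was wider than the spread within either. *Nes* rose by 0.63 on the log2 scale (SE 0.04, 95% interval 0.55 to 0.72, adjusted p = 1.11e-16, edgeR), and 86.9% of the tested genes had a smaller absolute change. Relative to *Vim*, the log2 ratio of *Nes* was -5.69 ± 0.0826 with vehicle and -4.98 ± 0.0601 with TGF-β1 (SD, n = 4 each), a difference of 0.71 (95% interval 0.59 to 0.84) with groups that did not overlap (exact permutation test, two-sided, p = 0.0286, adjusted p = 0.1 over 7 ratios). The profiles most like that of *Nes* were those of *Myc*, a transcription factor (root mean square difference 0.0342), and *Rnf19b* (0.0357). Neural progenitor markers moved in both directions. Of 5 genes, 4 were tested, *Fabp7* was higher and *Sox2* was lower (50% called, where 41.3% of all tested genes were called). *Fabp7* had 6, 8, 14 and 21 reads with vehicle and 22 to 33 with TGF-β1. It passed the expression filter through the TGF-β1 group, so its call is not independent of that filter. *Sox1* had 0 to 4 counts. The summed level of the 5 genes was 9.05 to 10.2 CPM with vehicle and 5.11 to 5.47 CPM with TGF-β1. Most of that sum was *Sox2*, and the median log2 fold change of the 4 tested genes was 0.10.

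The 250 bases before the start of *Nes* and of *Lmna*, which rose together, and of *Des*, the marker that was not called, are shown because SMAD proteins bind DNA at short elements. Windows were taken from a table made from RefSeq on GRCm38.p6, in which 8 of the 10 genes were matched. Those of *Krt19* and *Lmnb1* were not analysed here. In that order, the windows of *Nes*, *Lmna* and *Des* lie at chr3:87970843-87971092 on the plus strand, chr3:88503353-88503602 on the minus strand (the first of 2 listed starts, both inside the span of *Lmna* in the GENCODE annotation and not at its outer end) and chr1:75360042-75360291 on the plus strand. Capitals mark the motifs searched on both strands, which were the SMAD elements CAGAC and GGCGCC, the AP-1 site TGAGTCA and the CArG box of serum response factor.
Nes: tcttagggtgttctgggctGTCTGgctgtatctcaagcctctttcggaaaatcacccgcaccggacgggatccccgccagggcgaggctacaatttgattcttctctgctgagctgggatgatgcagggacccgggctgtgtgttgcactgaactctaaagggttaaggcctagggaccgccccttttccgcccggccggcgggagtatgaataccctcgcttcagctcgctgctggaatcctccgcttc
Lmna: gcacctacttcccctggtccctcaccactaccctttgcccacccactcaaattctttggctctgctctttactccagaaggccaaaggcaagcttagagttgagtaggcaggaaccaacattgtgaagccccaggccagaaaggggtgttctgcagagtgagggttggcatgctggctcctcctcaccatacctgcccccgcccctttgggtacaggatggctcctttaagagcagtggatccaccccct
Des: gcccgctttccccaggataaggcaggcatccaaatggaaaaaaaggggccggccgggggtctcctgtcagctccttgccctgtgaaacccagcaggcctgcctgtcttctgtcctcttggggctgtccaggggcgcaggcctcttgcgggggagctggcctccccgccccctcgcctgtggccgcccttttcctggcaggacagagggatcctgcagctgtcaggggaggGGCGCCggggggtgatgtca
*Nes* held 1 CAGAC on the opposite strand, 231 to 227 bases before the start, *Des* held 1 GGCGCC 20 to 15 bases before the start, and *Lmna* held none of the 4 motifs. Of the 32851 windows in the RefSeq table, 42.2% held CAGAC, 9.59% held GGCGCC, 4.46% held the AP-1 site and 1.47% held the CArG box. A match describes these letters and shows no binding.

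*Synm* (ENSMUSG00000030554, chromosome 7, 67730160 to 67759742, minus strand) encodes synemin, which ties desmin or vimentin filaments to the dystrophin complex and to adhesion sites. It was at 5.14, 4.76, 5.09 and 3.68 CPM with vehicle and 4.65, 5.10, 4.93 and 5.00 CPM with TGF-β1. Apart from 1 low vehicle culture, all values lay within the same narrow range. The log2 fold change was 0.07 (95% interval -0.14 to 0.28, adjusted p = 0.614, edgeR), and without vehicle replicate 4, the low culture, it was -0.024. The log2 ratio of *Synm* to *Vim* differed by 0.17 (95% interval -0.16 to 0.49, exact permutation test, two-sided, p = 0.257).

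Among the lamins, *Lmna* (ENSMUSG00000028063, chromosome 3, 88480147 to 88509956, minus strand), whose products stiffen the nucleus, was at 411, 427, 444 and 446 CPM with vehicle and 515, 512, 508 and 512 CPM with TGF-β1. All TGF-β1 cultures were above all vehicle cultures, and they lay closer together (SD 2.68 against 16.7 CPM). *Lmna* rose by 0.24 on the log2 scale (SE 0.02, 95% interval 0.20 to 0.29, adjusted p = 8.05e-12, edgeR), a rise of the mean by 18.4%. *Lmnb1* (ENSMUSG00000024590, chromosome 18, 56707813 to 56753424, plus strand), the farnesylated lamin that falls when cells leave the cycle for good, was at 46.7, 45.2, 53.9 and 52.9 CPM with vehicle and 55.9, 55.9, 56.6 and 60.5 CPM with TGF-β1. Vehicle cultures 1 and 2 were lowest, and cultures 3 and 4 came close to the TGF-β1 range without reaching it. For *Lmnb1* the log2 fold change was 0.20 (standard error 0.05, 95% interval 0.10 to 0.30, adjusted p = 0.00145, edgeR). The log2 ratio of *Lmna* to *Lmnb1* was 3.12 ± 0.0869 with vehicle and 3.16 ± 0.0556 with TGF-β1 (SD, n = 4 each). The difference of 0.04 (95% interval -0.09 to 0.16, exact permutation test, two-sided, p = 0.543) leaves room for a shift of the balance by up to 0.16 on the log2 scale. The third lamin gene, *Lmnb2*, was at 37.5 ± 1.09 and 39.9 ± 0.946 CPM (SD, n = 4 each) and was not called (adjusted p = 0.0567, edgeR), although its groups did not overlap.

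Of 17 genes of the cell cycle, 12 were higher and 1 was lower, with a median log2 fold change of 0.15 (76.5% called, where 41.3% of all tested genes were called and 20.9% were higher). The called members with the largest changes were *Bub1*, a kinase of the spindle checkpoint (0.35), *Cenpf*, a kinetochore protein (0.25), *Rrm2*, a subunit of ribonucleotide reductase (0.25), and *Top2a*, which untangles DNA (0.20). Their part in the change of *Lmnb1* was not tested.

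Of 16 genes for lamin-binding and lamin-processing proteins, 5 were higher and 6 lower (68.75% called, where 41.3% of all tested genes were), with a median log2 fold change of 0.01. *Fntb* and *Fnta*, the subunits of the farnesyltransferase that modifies lamins and other proteins, fell by 0.59 and 0.17 on the log2 scale. *Tor1aip1*, which binds lamins at the inner nuclear membrane, fell by 0.51, and *Syne2*, a nesprin that links the nucleus to actin, rose by 0.21 (adjusted p from 8.71e-17 to 0.000134 in edgeR, none with overlapping groups). *Zmpste24*, the protease that matures prelamin A, was not called.

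*Krt19* (ENSMUSG00000020911, chromosome 11, 100140810 to 100148665, minus strand), the smallest type I keratin, was at 4.71, 4.63, 5.41 and 5.50 CPM with vehicle and 7.75, 6.99, 6.07 and 7.53 CPM with TGF-β1. The groups did not overlap, and the lowest TGF-β1 culture, number 7, was near the highest vehicle culture. The log2 fold change was 0.48 (standard error 0.09, 95% interval 0.29 to 0.67, adjusted p = 3.56e-05, edgeR). The profiles most like it were those of *Grasp* (root mean square difference 0.0676) and *Rab26os* (0.0700).

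*Krt8* (ENSMUSG00000049382, chromosome 15, 101996698 to 102004482, minus strand), the type II chain that pairs with keratins 18 and 19, had 6, 9, 2 and 9 reads with vehicle and 5, 11, 3 and 12 with TGF-β1, so that a keratin that can pair with *Krt19* was at the limit of detection in both groups. *Krt18* (ENSMUSG00000023043, chromosome 15, 102028180 to 102032027, plus strand), its type I partner, had 0, 8, 2 and 2 reads with vehicle and 14, 6, 10 and 9 with TGF-β1. In sum there were 12 *Krt18* reads with vehicle and 39 with TGF-β1, and the groups overlapped through vehicle culture 2. Both were removed by the expression filter. With all genes of at least 1 count tested, *Krt18* was fitted at 1.66 ± 0.66 on the log2 scale (SE; adjusted p = 0.0577, edgeR), and with DESeq2 the adjusted p was 0.0670, so it was not called by either. *Krt8* had an adjusted p of 0.846 and 0.831 in those fits. The log2 ratio of *Krt8* to *Krt18* overlapped between the groups (difference -1.89, 95% interval -4.49 to 0.72, exact permutation test, two-sided, p = 0.171). That difference was -1.14 without vehicle replicate 1, the culture with no *Krt18* read, and -1.25 with a pseudocount of 2 counts. Of the 31-base words in *Krt8* transcripts, 36.05% also occur in transcripts of other genes, a pseudogene among them, and for *Krt18* the share was 11.4%, which makes such low counts uncertain.

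Most other keratins had at most 18 counts in any culture. Of 54 keratin genes in the files, 7 passed the filter, 4 were higher, *Krt19* among them, and none was lower (57.1% called, where 41.3% of all tested genes were called and 20.9% were higher). Besides *Krt19*, *Krt80*, a type II keratin of epithelia, went from 3.75 ± 0.226 to 5.90 ± 0.530 CPM (SD, n = 4 each; log2 fold change 0.65, adjusted p = 5.10e-07, edgeR) without overlap. *Krt7* (log2 fold change 0.79, adjusted p = 0.0472) and *Krt76* (1.43, adjusted p = 0.00558) had means under 1 CPM and overlapping groups, and they are named after their values were seen. *Krt76* had 15, 2, 4 and 10 reads with vehicle and 13, 19, 22 and 30 with TGF-β1. It passed the expression filter through the TGF-β1 group, so its place in the count of higher keratins is not independent of that filter. *Krt10*, the type I keratin of differentiated epidermis, was at 4.08 ± 0.288 and 4.24 ± 0.535 CPM and was not called (adjusted p = 0.723). Of 7 epithelial markers, 4 were tested and 1, *Esrp2*, was higher (25% called, where 41.3% of all tested genes were called). *Epcam* had 0 to 8 counts and *Cldn4* 0 to 6, and the epithelial sum was 4.46 to 5.94 CPM with vehicle and 6.15 to 7.07 CPM with TGF-β1. Of 5 mesothelial markers, 3 were tested and 1, *Msln*, was higher (33.3% called, where 41.3% of all tested genes were called). *Msln* was at 109 ± 6.60 and 147 ± 4.68 CPM, while *Wt1* had 2 to 8 counts and *Upk3b* 0 to 14. The mesothelial sum was 101 to 116 CPM with vehicle and 144 to 154 CPM with TGF-β1. The part of either cell type in the changes of these keratins was not tested.

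Of 11 genes of other filament classes, 7 were tested, 1 was higher and 1 was lower (28.6% called, where 41.3% of all tested genes were called). *Bfsp1*, a beaded filament protein known from the lens, went from 0.989 ± 0.234 to 1.51 ± 0.275 CPM (SD, n = 4 each; log2 fold change 0.61, adjusted p = 0.0106, edgeR), and *Iffo1*, an intermediate filament family protein of the nucleus, went from 54.8 ± 1.01 to 50.8 ± 1.90 CPM (-0.11, adjusted p = 0.00767), both without overlap. *Sync*, syncoilin, a partner of desmin and of dystrobrevin in muscle, was at 3.49 ± 0.236 and 3.92 ± 0.213 CPM and was not called (adjusted p = 0.243). *Iffo2*, *Nefh*, the heavy neurofilament chain, and *Bfsp2* were not called either (adjusted p from 0.224 to 0.950). Peripherin, the light and medium neurofilament chains and internexin (*Prph*, *Nefl*, *Nefm* and *Ina*) had at most 18 counts in any culture. Over all 72 intermediate filament genes, 21 were tested, of which 8 were higher and 2 lower (47.6% called, near the 41.3% of all tested genes). *Krt76*, which passed the filter through the TGF-β1 group, is among these 8.

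**Figure D4:**
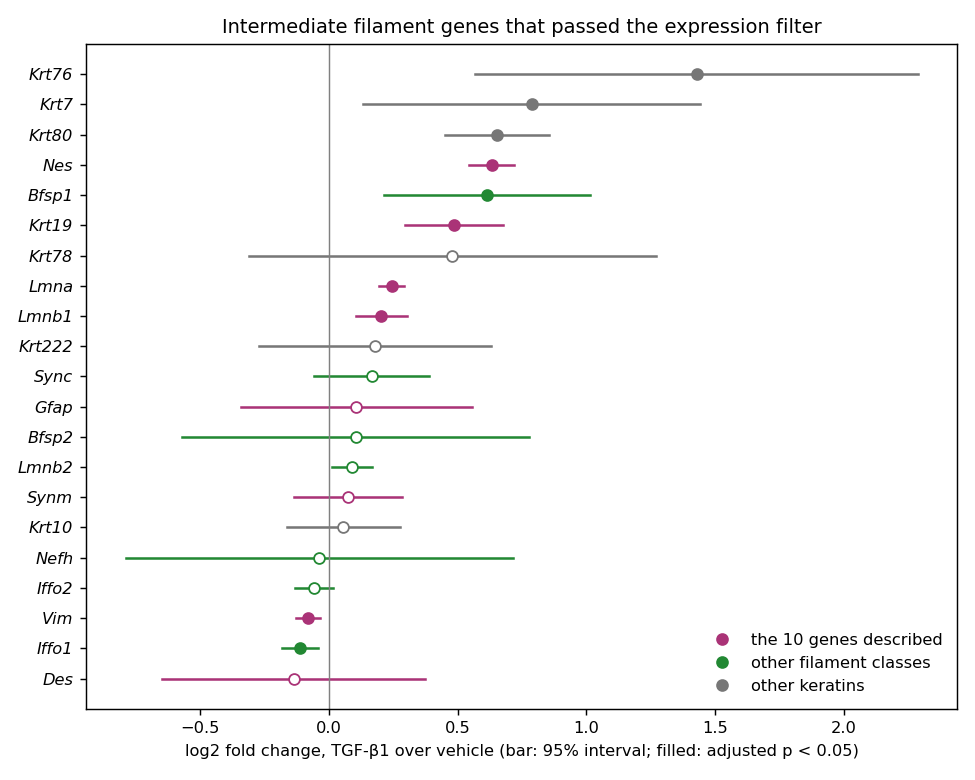
Log2 fold change (TGF-β1 over vehicle) with its 95% interval for the 21 intermediate filament genes that passed the expression filter; filled points have an adjusted p under 0.05. *Nes*, *Lmna* and *Lmnb1* combine narrow intervals with a rise, *Vim* lies just below 0, and the interval of *Des* runs from -0.65 to 0.37.

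Genes of linkers, junction plaques and related proteins moved in both directions. The list held 23 genes, among them the actin adhesion genes *Vcl*, *Zyx* and *Tln1* and the chaperones *Cryab* and *Hspb1*. All were tested, and 8 were higher and 7 lower (65.2%, where 41.3% of all genes were called), with a median log2 fold change of 0.01. *Pkp1*, a plakophilin of desmosomes, went from 0.427 ± 0.162 to 1.94 ± 0.478 CPM (log2 fold change 2.18, adjusted p = 2.01e-10, edgeR), and *Dsp*, the desmoplakin that anchors filaments to desmosomes, from 3.63 ± 0.421 to 8.92 ± 0.765 CPM (1.30, adjusted p = 1.47e-15). In the other direction, *Ppl*, periplakin, a linker of keratin and vimentin, went from 87.8 ± 2.49 to 41.3 ± 2.697 CPM (-1.09, adjusted p = 1.27e-26). *Dtna*, a dystrobrevin of the complex to which synemin binds, went from 55.6 ± 0.929 to 37.2 ± 1.25 CPM (-0.58, adjusted p = 4.92e-18). Errors are SD over n = 4 cultures, and in these 4 genes the groups did not overlap. *Plec*, plectin, the main linker of vimentin and desmin, was not called.

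**Figure D5:**
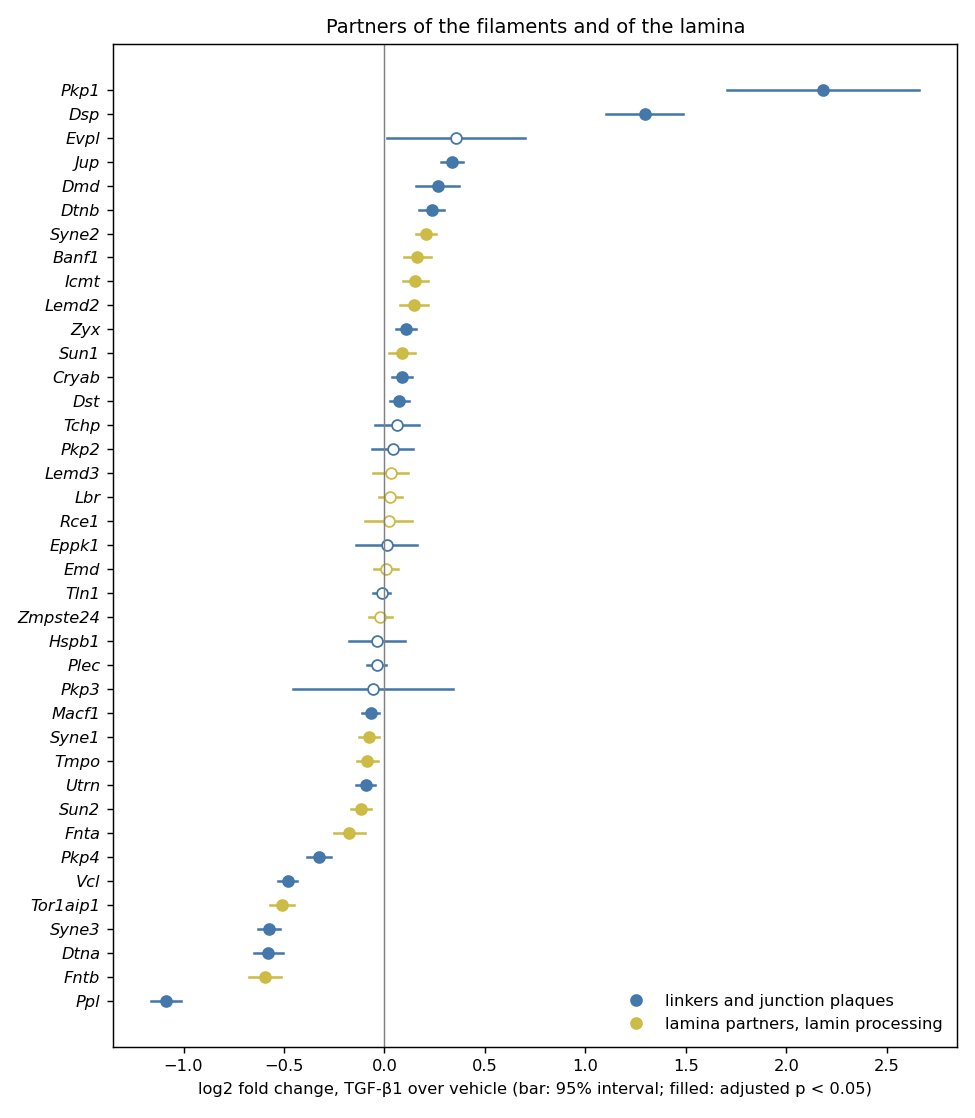
Log2 fold change with its 95% interval for 23 linker, plaque, adhesion and chaperone genes (blue) and 16 lamina partner and lamin-processing genes (yellow). Filled points have an adjusted p under 0.05. *Pkp1* (2.18) and *Dsp* (1.30) stand at the top and *Ppl* (-1.09) at the bottom, and every other gene lies between them, the next lowest being *Fntb* (-0.59).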

How the data were processed

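RNA-seq was performed on 8 mouse brain pericyte cultures (Illumina stranded total RNA libraries). The deposited values are counts per Ensembl gene. The authors aligned reads to mm10 with STAR 2.7.5c, removed PCR duplicates with SAMtools 1.15 and counted with featureCounts 2.0.3; the annotation release, the strand setting and the treatment of read pairs are not given in the sources used here. Between 68.5% and 70.2% of counts from 1 to 20 were even, so fragments may have been counted from both ends and counts are not independent molecules. Symbols, positions and exon lengths came from GENCODE M21 (GRCm38, the assembly of mm10), which gave a symbol for 54409 of 54532 identifiers.

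Counts were tested with edgeR 4.0.16 in R 4.3.3 (filterByExpr, TMM, robust quasi-likelihood test, Benjamini-Hochberg over 22544 genes, threshold 0.05). Standard errors are the log2 fold change divided by the square root of F. Ratios used a pseudocount of 0.5 counts and exact two-sided permutation tests, adjusted over 7 ratios; their 95% intervals used the pooled SD. The code was tested on simulated data. Alternatives were DESeq2 1.42.0, other scalings and filters, a non-robust dispersion, counts per fragment, and each culture left out; transcript length was added after seeing the data. Chi-square statistics between libraries of 1 group, divided by their degrees of freedom, ran from 2.25 (vehicle cultures 3 and 4) to 3.92. If fragments were counted from both ends, repeats of 1 library would also give raised values. These values therefore cannot tell repeats from separate cultures, and each library was treated as a separate culture, as labelled.

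The genes and lists were chosen with earlier results of these data known. The named genes are the 10 genes, all tested genes of other filament classes, keratins with a mean of at least 1 CPM, and up to 4 of the largest called changes (mean of at least 1 CPM) per partner, lamina, regulator and cell cycle list; other genes serve as markers or checks, or are named as chosen later. Some genes that these rules name are not reported here.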

Additional observations from a re-analysis of the deposited data

Results flagged for a closer look

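In 36 sets of 4 values (the CPM of the 10 genes, the 7 ratios and the library totals, each in both groups), 2 held 1 value far outside the rest, and a chance rate of 1 in 20 gives 1.8. For *Lmnb1* the value was 60.5 CPM, in TGF-β1 replicate 8, and the nearest was 56.6 CPM. Without that culture the log2 fold change of *Lmnb1* was 0.18 (adjusted p = 0.00197, edgeR). For the log2 ratio of *Nes* to *Vim* it was -4.89, in TGF-β1 replicate 6, and the nearest was -5.01. Without that culture the difference between the groups was 0.68.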

How the results depend on the processing

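The 5 called genes kept their direction and an adjusted p under 0.05 in all 16 alternatives: *Nes* between 0.60 and 0.65, *Krt19* between 0.44 and 0.55, *Lmna* between 0.23 and 0.26, *Lmnb1* between 0.16 and 0.25 and *Vim* between -0.10 and -0.06 (log2 fold change; highest adjusted p 0.0426, for *Vim*). The numbers of 4 higher and 1 lower were therefore the same in each. *Des* (-0.21 to -0.07) and *Gfap* (0.01 to 0.24) kept their direction and *Synm* did not (-0.024 without vehicle replicate 4 to 0.13 without vehicle replicate 1, the cause was not tested), and these 3 stayed above 0.05 in all 16. The 7 ratios kept their direction with a pseudocount of 2 counts and as ratios of mean counts. Their adjusted p says little of stability, since 4 cultures against 4 can hardly pass the threshold over 7 ratios. With each culture left out, where 3 against 4 allow no p under 0.0571, *Des* to *Rgs5* stayed between 1.77 and 2.02 and *Nes* to *Vim* between 0.68 and 0.75, while *Des* to *Notch3* (-0.18 to 0.00) and *Des* to *Vim* (-0.11 to 0.01) reached 0. *Krt8* to *Krt18* ran from -2.37 to -1.14, *Synm* to *Vim* from 0.041 (without vehicle replicate 4) to 0.24, and *Lmna* to *Lmnb1* from 0.0094 (without vehicle replicate 3) to 0.075 (without vehicle replicate 2). No paired analysis was possible because the labels share no replicate numbers between the groups. The depth limits *Des*, *Gfap*, *Krt8* and *Krt18*, with at most 54 reads per culture.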

Other observations

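Among 14 genes for kinases, proteases and ubiquitin ligase adaptors that act on intermediate filaments, 13 were tested, 9 were higher and 2 lower (edgeR, adjusted p under 0.05). This is 84.6% called, where 41.3% of all tested genes were called and 20.9% were higher. The median log2 fold change was 0.12. Among those that were higher were *Pak1*, a kinase that phosphorylates vimentin and desmin (26.9 ± 1.62 CPM with vehicle and 32.1 ± 0.540 CPM with TGF-β1, SD, n = 4 each), *Cdk5*, a kinase that phosphorylates nestin (log2 fold change 0.21), and *Aurkb*, a mitotic kinase of vimentin (0.18). In each of these 3 genes, every TGF-β1 culture was above every vehicle culture.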
